A study of Mus musculus with 16 samples.

Results

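The choroid plexus epithelium genes described here are 10 rows of the mouse gene count table: Ttr, Kl, Folr1, Clic6, Kcnj13, Otx2, Slc4a5, F5, Aqp1 and Enpp2. They were taken by symbol, as a measure of how much choroid plexus each brain sample carried, and all 10 were found among the 55487 genes of the table. All 10 also passed the filter on low values (at least 10 counts in at least 4 mice), which left 18609 genes to be tested. RNA-sequencing was run on bulk brain tissue of 16 mice in 4 groups of 4.

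CETPtg mice carry human cholesteryl ester transfer protein (CETP), a plasma protein that moves neutral lipids between lipoproteins, under its own promoter, and APPtg/CETPtg mice carry in addition human amyloid precursor protein with the Swedish and Indiana mutations under a Thy1 promoter, which is active in neurons. Both transgenes were heterozygous on a C57BL/6J background. All mice were female and received a diet with 1% cholesterol from 11 weeks of age, together with either evacetrapib, a small-molecule CETP inhibitor, at 30 mg/kg/day intraperitoneally or vehicle, for 11 weeks. The CETPtg vehicle mice are named S1 to S4, the CETPtg evacetrapib mice A to D, the APPtg/CETPtg vehicle mice S5 to S8 and the APPtg/CETPtg evacetrapib mice E to H. The RNA came from bulk brain tissue, not from dissected choroid plexus. Per the methods, non-perfused mice had the cerebrum divided into quadrants and frozen, while left hemispheres of perfused mice were fixed. The methods do not name the mice or the quadrant that gave the RNA.

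Total counts ran from 21391335 in mouse G to 55453789 in mouse S8. The 24 pairs of mice within groups differed by 4.75 to 21.1 times the chi-square expected from counting alone, so that no 2 libraries were counted as 1. Thy1, whose promoter drives the mutant transgene, lay between 684 and 807 CPM (read counts relative to the library's total, which was scaled by edgeR's TMM factor) in the CETPtg mice and between 865 and 2063 CPM in the APPtg/CETPtg mice, without overlap. The index positions of the libraries lay in different plate columns for the genotypes and in different plate rows for the treatments, so that any effect of position cannot be told apart from either. The labels name each sample as a mouse of its own.

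The choroid plexus is a fold of tissue that hangs into the brain ventricles and secretes the cerebrospinal fluid. Its epithelium is a single sheet of cuboidal cells, joined by tight junctions, that moves ions and water from blood to fluid, takes up folate and other nutrients, and releases carrier proteins. Because the tissue is small and lies loose in the ventricle, the amount that stays with a piece of brain can differ from dissection to dissection, and in bulk RNA a smaller number of epithelial cells and less RNA per cell cannot be told apart.

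Promoter windows were held for 6 of the 10 genes in the RefSeq sequences for GRCm38.p6, and 3 are shown because Otx2 and Kcnj13 rose with Ttr across these mice while Aqp1 did not pass that test. OTX2 is a homeodomain protein required for the choroid plexus epithelium to form, and the core of the sites that such proteins bind, TAATCC, was searched on both strands of the 250 bases before each start. It stood in 2054 of the 32851 windows of all genes (6.25%). Of the 6 listed genes with a window 1 had it, Otx2 itself, in 1 of its 4 windows. The first share is per window and the second per gene, so that they are not directly comparable. Capitals mark the match, which begins 211 bases before the start and reads on the other strand. The windows of Kl, Kcnj13, Slc4a5, F5 and Aqp1 held none.
Otx2 (chr14:48665110-48665359, minus strand, 250 bases before the start): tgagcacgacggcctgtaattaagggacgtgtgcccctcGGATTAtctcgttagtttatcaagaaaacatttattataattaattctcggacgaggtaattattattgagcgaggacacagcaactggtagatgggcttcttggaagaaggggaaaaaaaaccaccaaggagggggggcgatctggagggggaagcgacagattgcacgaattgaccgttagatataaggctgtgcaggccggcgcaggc
Kcnj13 (chr1:87394730-87394849, minus strand, last 120 bases before the start): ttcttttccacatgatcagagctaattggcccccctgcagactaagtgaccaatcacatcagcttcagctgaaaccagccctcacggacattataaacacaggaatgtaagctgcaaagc
Aqp1 (chr6:55336179-55336298, plus strand, last 120 bases before the start): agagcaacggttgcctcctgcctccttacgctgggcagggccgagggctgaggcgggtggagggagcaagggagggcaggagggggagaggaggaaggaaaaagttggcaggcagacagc

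The carrier protein came first. Ttr (ENSMUSG00000061808, 1186 exonic bases) encodes transthyretin, which choroid plexus epithelium secretes into the cerebrospinal fluid and which carries thyroxine and, through retinol-binding protein, retinol. In the CETPtg vehicle mice Ttr was at 1.08 CPM in S1, 1.56 in S2, 138 in S3 and 0.705 in S4. In the CETPtg evacetrapib mice it was at 4.61 CPM in A, 99.7 in B, 22.6 in C and 2.19 in D. In the APPtg/CETPtg vehicle mice it was at 1.59 CPM in S5, 2.704 in S6, 97.3 in S7 and 427 in S8. S8, S3, B and S7, which come from 3 of the 4 groups, stood above all the others. In the APPtg/CETPtg evacetrapib mice the values were 2.15 CPM in E, 1.502 in F, 2.35 in G and 10.6 in H, so that this was the one group with no mouse above 10.6 CPM.

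From the lowest mouse (S4, 20 counts) to the highest (S8, 23790 counts) the level of Ttr differed 606-fold. On the log2 scale its range of 9.12 was the widest of all 18609 genes tested, for which the median range was 0.56 and the 99th percentile 3.04. Genes removed by the filter were not ranked. Among them was the pituitary hormone gene Prl, chosen after its values were seen, with 0 to 13648 counts per mouse. Slc4a5 and Folr1 ranked 29th and 27th by the same measure, with ranges of 4.75 and 4.80. Kl, Kcnj13, Otx2 and F5 had ranges of 2.71 to 3.22, Aqp1 3.98, Clic6 1.34 and Enpp2 1.13. Even in S8, Ttr made up only 0.0429% of the counts.

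Of the transport proteins, Folr1 (chr7:101858331-101870788, minus strand, GRCm38) encodes folate receptor alpha, which takes folate across the choroid plexus epithelium. It was at 0.330 CPM in S1, 0.350 in S2, 1.37 in S3 and 0.0705 in S4 among the CETPtg vehicle mice, and at 0.353 in A, 1.17 in B, 0.584 in C and 0.255 in D among the CETPtg evacetrapib mice. Among the APPtg/CETPtg vehicle mice it was at 0.363 CPM in S5, 0.0901 in S6, 1.31 in S7 and 3.65 in S8, and among the APPtg/CETPtg evacetrapib mice at 0.679 in E, 0.365 in F, 0.184 in G and 0.603 in H. The 4 highest mice were S8, S3, S7 and B, as for Ttr, and all groups overlapped. The gene had 2 to 203 counts per mouse and reached 10 counts in 10 mice.

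Slc4a5 (chr6:83219828-83304945, plus strand) encodes a sodium bicarbonate cotransporter of the epithelium's apical membrane. Its level was 0.0901 CPM in S1, 0.242 in S2, 1.60 in S3 and 0.0705 in S4, and 0.132 in A, 0.929 in B, 0.505 in C and 0.0568 in D. In the APPtg/CETPtg vehicle mice it was 0.272 CPM in S5, 0.135 in S6, 0.801 in S7 and 2.86 in S8, and in the APPtg/CETPtg evacetrapib mice 0.0755 in E, 0.122 in F, 0.0461 in G and 0.0928 in H. These last 4 mice lay below all 4 vehicle mice of their genotype, but they rest on 2, 3, 1 and 2 counts, against 6, 3, 22 and 159 in the vehicle mice. Slc4a5 reached 10 counts in only 5 of the 16 mice.

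Kcnj13 (chr1:87386363-87394729, minus strand), a gene for an inwardly rectifying potassium channel (Kir7.1) of the apical membrane, ran from 0.423 CPM in S4 to 3.56 CPM in S8, with 2.34 CPM in S3. Clic6 (chr16:92485736-92541243, plus strand), which belongs to the family of chloride intracellular channels, ran from 5.36 CPM in A to 13.6 CPM in S8, with a coefficient of variation of 29.7% over the 16 mice against 215% for Ttr. The genes Gigyf2 on the other strand of Kcnj13 and Anapc15 on the other strand of Folr1 overlap them in the GENCODE M21 annotation, and whether reads were counted by strand is not given in the sources used here.

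Kl (chr5:150952607-150993817, plus strand) encodes klotho, a membrane protein that acts as the co-receptor of fibroblast growth factor 23 and is shed into the cerebrospinal fluid. It was at 3.72 CPM in S1, 2.69 in S2, 7.57 in S3 and 2.29 in S4, and at 2.32 in A, 5.88 in B, 3.61 in C and 3.77 in D. In the APPtg/CETPtg vehicle mice it was at 2.90 CPM in S5, 1.71 in S6, 5.86 in S7 and 11.6 in S8, while the evacetrapib mice of that genotype lay close together, from 3.21 CPM in E to 4.26 CPM in F. The transcription factor gene Otx2 (chr14:48657677-48673819, minus strand) ran from 0.302 CPM in E to 2.32 CPM in S8, and F5 (chr1:164151838-164220277, plus strand), which encodes coagulation factor V, from 0.363 CPM in S5 to 3.90 CPM in S8. In both, S3 was the second highest mouse, at 1.84 and 2.89 CPM.

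Enpp2 (chr15:54838901-54952892, minus strand) encodes autotaxin, a secreted enzyme that makes lysophosphatidic acid and that oligodendrocytes express as well as choroid plexus epithelium. Enpp2 was at 212 CPM in S1, 201 in S2, 275 in S3 and 214 in S4, and at 248 in A, 251 in B, 225 in C and 188 in D. It was at 185 CPM in S5, 161 in S6, 243 in S7 and 353 in S8, and at 193 in E, 192 in F, 191 in G and 188 in H. The last group was the tightest, with a mean of 191 ± 2.33 CPM (SD, n = 4), against 235 ± 85.6 CPM (SD, n = 4) in the vehicle mice of the same genotype. Per kilobase of exon Enpp2 was the most abundant of the 10 genes, at a median of 35.8 CPM per kb over the mice, followed by Clic6 at 2.44, Ttr at 2.13 and Aqp1 at 1.39. In S8 the order was turned, with Ttr at 360 CPM per kb and Enpp2 at 61.0.

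Aqp1 (chr6:55336432-55348555, plus strand), the gene for the water channel aquaporin-1 of the apical membrane, had a pattern of its own. It was at 2.34 CPM in S1, 6.45 in S2, 5.94 in S3 and 5.85 in S4, and at 1.15 in A, 2.998 in B, 1.59 in C and 5.99 in D. In the APPtg/CETPtg vehicle mice it was at 0.544 CPM in S5, 8.88 in S6, 2.84 in S7 and 3.92 in S8, and in the evacetrapib mice of that genotype at 7.32 in E, 1.06 in F, 9.54 in G and 3.39 in H. Its highest mice, G, S6 and E, had only 2.15 to 2.704 CPM of Ttr, and S8 was close to its median of 3.65 CPM.

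**Figure D1:**
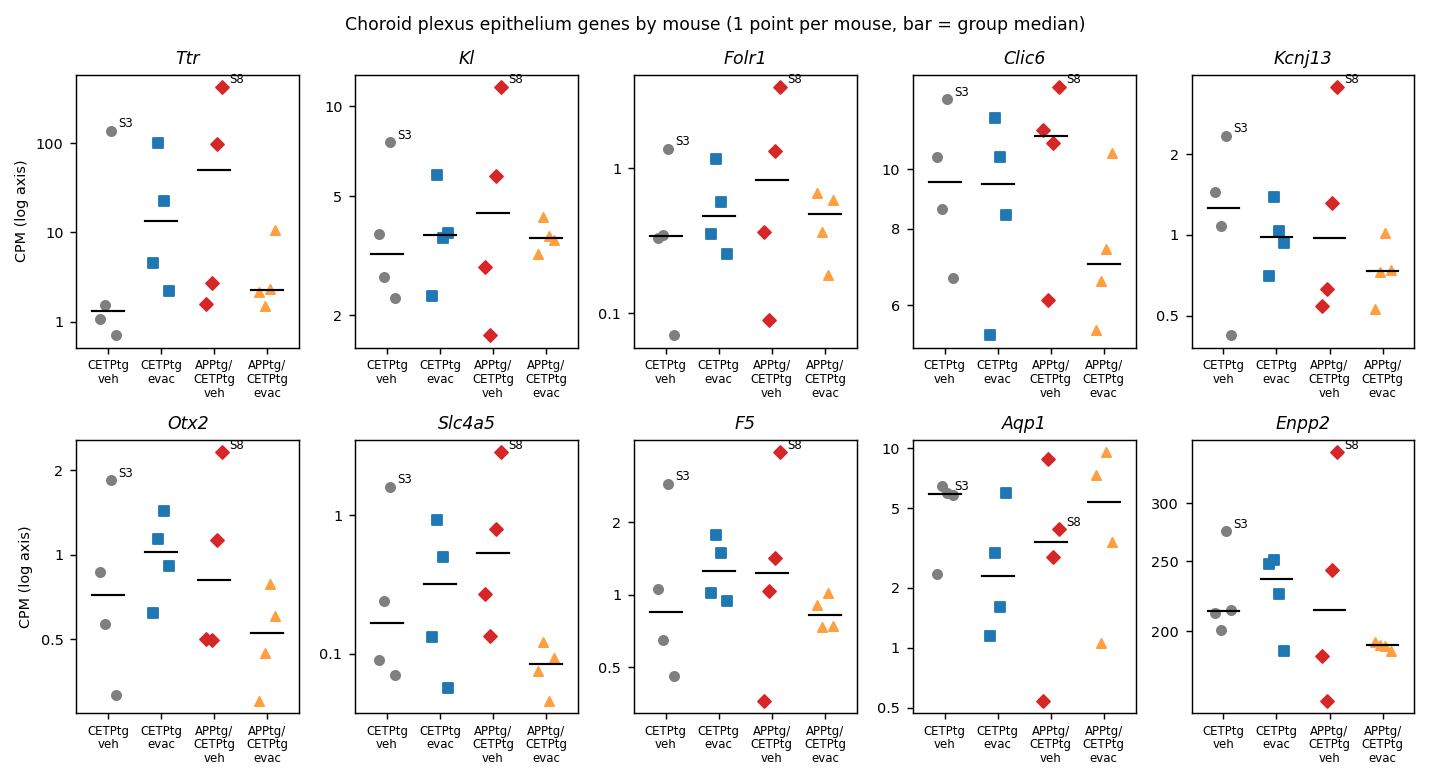
Level of each of the 10 genes in CPM (log axis) in the 4 groups of 4 mice, with 1 point per mouse and a bar at the group median. S8 is the highest mouse and S3 the second highest for the 9 genes other than Aqp1, and within each genotype the vehicle and evacetrapib mice overlap except for Slc4a5 in the APPtg/CETPtg mice.

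The highest mice were shared by 9 of the 10 genes. S8 was the highest and S3 among the 2 highest mice for 9 genes, B was among the 4 highest for 9 genes, and S7 among the 5 highest for 9 genes. Aqp1 was the exception each time. Over the 36 pairs of genes without Aqp1, the correlation of log2 CPM across the 16 mice had a median of 0.78 and ran from 0.49 to 0.92. Over the 9 pairs with Aqp1, it had a median of -0.02 and ran from -0.18 to 0.22.

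To ask which genes follow Ttr once the group means are taken out, the log2 CPM of Ttr was used as a term beside the 4 group means in an edgeR quasi-likelihood fit, and p values were adjusted over 18608 genes by the Benjamini-Hochberg method. Of the 9 other listed genes, 7 rose with Ttr at an adjusted p of at most 0.05, against 20 genes (0.107%) of all those tested. Slc4a5 had the steepest slope, 0.52 ± 0.04 (SE) log2 units per log2 unit of Ttr (adjusted p = 4.8e-06), and Folr1 followed with 0.42 ± 0.05 (SE, adjusted p = 0.000275). F5 rose by 0.27 ± 0.04, Otx2 by 0.23 ± 0.04, Kcnj13 by 0.23 ± 0.04 and Kl by 0.22 ± 0.03 (SE, edgeR adjusted p = 0.0012, 0.0114, 0.0189 and 0.00249). The abundant gene Enpp2 rose by only 0.08 ± 0.01 per log2 unit (SE, edgeR adjusted p = 0.0146). Clic6 had a similar slope of 0.10 ± 0.03 but did not pass (edgeR adjusted p = 0.518), and Aqp1 had a slope of -0.03 ± 0.08 (SE, edgeR adjusted p = 0.993). All slopes were below 1, that is, every listed gene changed less than in proportion to Ttr.

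The count of 7 rests on few mice. Without S3 it was 3 (Slc4a5, Folr1 and Kl), without S8 it was 4 (Slc4a5, Folr1, Kl and F5), and over all 16 mice left out in turn it ran from 3 to 7. Slc4a5 kept a slope of 0.53 without S3 and 0.50 without S8 (edgeR adjusted p = 0.000663 and 0.00035), and Folr1 one of 0.46 and 0.37 (edgeR adjusted p = 0.00376 and 0.00808).

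On the linear scale the same genes had a level that remained in mice with almost no Ttr. A straight line of CPM on Ttr CPM through the 16 mice gave Kl 2.13 ± 0.20 CPM more per 100 CPM of Ttr and 3.21 ± 0.23 CPM at a Ttr of 0 (SE). For Folr1 the line rose by 0.788 ± 0.039 CPM per 100 CPM of Ttr from 0.331 ± 0.046 CPM, and for Slc4a5 by 0.676 ± 0.042 CPM from 0.157 ± 0.049 CPM (SE). Enpp2 rose by 38.3 ± 4.9 CPM per 100 CPM of Ttr from 200 ± 5.8 CPM (SE). S8 pulled on these lines: without it the rise was 3.11 ± 0.41 CPM for Kl, 0.860 ± 0.098 for Folr1, 0.940 ± 0.074 for Slc4a5 and 54.2 ± 11.7 for Enpp2 (SE, n = 15), and the values at a Ttr of 0 were 2.999, 0.316, 0.102 and 197 CPM. For Aqp1 the line fell by 0.178 ± 0.690 CPM per 100 CPM of Ttr (SE).

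**Figure D2:**
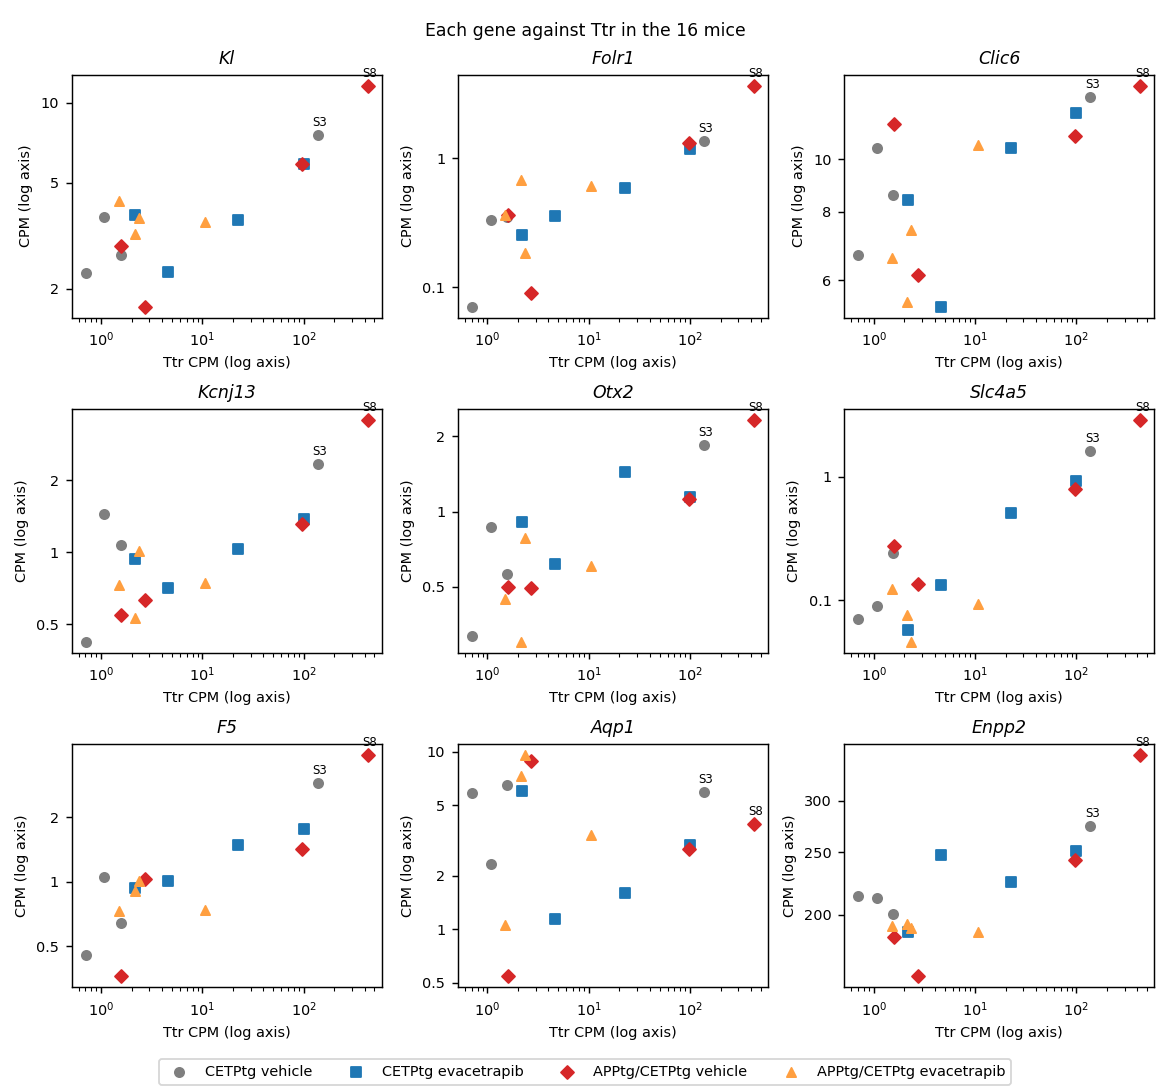
CPM of 9 genes against the CPM of Ttr (both log axes) in the 16 mice, coloured by group, with S8 and S3 named. The 8 genes other than Aqp1 are highest in S8 and S3 and flatten out at low Ttr, while Aqp1 has its highest points at a Ttr of about 2 CPM.

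The correlation across all mice was tested as well, in 9 relations, with permutation p values adjusted over all 18608 genes. Pearson's r with Ttr on log2 CPM was 0.91 for Slc4a5, 0.88 for Folr1, 0.87 for F5, 0.84 for Otx2, 0.82 for Kl, 0.80 for Enpp2, 0.78 for Kcnj13, 0.68 for Clic6 and 0.01 for Aqp1. By r, Slc4a5 stood 3rd and Folr1 4th of all 18608 genes, the first 7 of the 9 genes stood within the first 18, and Clic6 was 40th and Aqp1 9035th. Folr1 alone passed the adjustment (permutation p = 1e-05, the smallest that 100000 resamples can give, adjusted p = 0.0465), against 4 genes (0.0215%) of all those tested. The count of 1 became 2 without E or G and 0 without any other mouse. Slc4a5 and F5 had an adjusted permutation p of 0.0532 each, Otx2 0.093, Kl 0.202, Enpp2 0.267, Kcnj13 0.408, and Clic6 and Aqp1 1.000.

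Spearman's rho, which does not see how far S8 and S3 stand from the rest, was lower, at 0.79 for F5, 0.76 for Otx2, 0.72 for Folr1, 0.69 for Slc4a5, 0.58 for Clic6, 0.56 for Kcnj13, 0.55 for Kl, 0.53 for Enpp2 and 0.03 for Aqp1 (permutation p = 0.00042, 0.00095, 0.00246, 0.00385, 0.0209, 0.0245, 0.0305, 0.0384 and 0.925). None of these passed the adjustment over all genes (adjusted p = 1.000 each). Without S8 and S3, the 2 mice farthest from the median of Ttr, r was 0.82 for Slc4a5, 0.78 for Folr1, 0.73 for F5, 0.69 for Otx2, 0.64 for Kl, 0.59 for Enpp2, 0.54 for Kcnj13, 0.52 for Clic6 and -0.13 for Aqp1. No gene of the table then passed, and the smallest adjusted permutation p among the 9 genes was 0.812. Spearman's rho without them was 0.69 for F5, 0.64 for Otx2, 0.58 for Folr1, 0.54 for Slc4a5, 0.37 for Clic6, 0.35 for Kcnj13, 0.32 for Kl, 0.29 for Enpp2 and -0.0022 for Aqp1. The relation held in sign for 8 genes, but was weaker below the highest mice.

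Within the genotypes, which also differ in plate column, r with Ttr in the 8 CETPtg mice was 0.94 for Slc4a5, 0.93 for Folr1, 0.91 for F5, 0.82 for Kl, 0.82 for Otx2, 0.79 for Enpp2, 0.66 for Kcnj13 and 0.65 for Clic6. In the 8 APPtg/CETPtg mice it was 0.89 for Slc4a5, 0.86 for Folr1, 0.84 for F5, 0.83 for Kl, 0.91 for Otx2, 0.90 for Enpp2, 0.90 for Kcnj13 and 0.71 for Clic6. Aqp1 was at -0.13 and 0.10. Spearman's rho in the CETPtg mice was 0.81 for Slc4a5, 0.93 for Folr1, 0.86 for F5 and 0.69 for Kl. It was 0.86 there for Otx2, 0.74 for Enpp2, 0.48 for Kcnj13 and 0.67 for Clic6. In the APPtg/CETPtg mice rho was lower than r, at 0.48 for Slc4a5, 0.52 for Folr1, 0.83 for F5 and 0.45 for Kl. It was 0.79 there for Otx2, 0.40 for Enpp2, 0.74 for Kcnj13 and 0.48 for Clic6. The exact permutation test over all 40320 orders of 8 mice could hardly pass here: its smallest p is 2.5e-05, which gives a single gene an adjusted p of 0.461, and no gene passed.

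The 20 genes that rose with Ttr were 7 of the listed genes, 8 from a list of 27 other choroid plexus epithelium genes, of which 23 could be tested, and 5 that were in neither. From the list, Mfrp had a slope of 0.53 ± 0.04, Kcne2, a potassium channel subunit of the epithelium, 0.53 ± 0.07, Tmem72 0.40 ± 0.05, and Cldn2, a tight junction claudin, 0.36 ± 0.05 (SE, edgeR adjusted p = 4.8e-06, 0.0012, 0.00046 and 0.00191). Sostdc1, a secreted inhibitor of BMP and Wnt signals, Wdr86, Ecrg4, which encodes a secreted peptide precursor, and Ace, the angiotensin-converting enzyme, rose by 0.27, 0.24, 0.21 and 0.06. The median slope of the list was 0.11, against -0.001 for all genes tested. Of its 4 most abundant genes, Vat1l, Car12 and Col9a3 had slopes of 0.05, 0.02 and 0.03 and did not pass (edgeR adjusted p = 0.259, 0.948 and 0.926), and Ace did (edgeR adjusted p = 0.0171). The 5 genes outside both lists, chosen after their values were seen, were 2900040C04Rik, Epn3, Drc7, Gpx3 and Krt8.

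Likeness to the whole set was measured as r with the mean z-score of the 10 genes over the 16 mice. The 12 genes most alike were Mfrp (0.90), Ecrg4 (0.90), 2900040C04Rik (0.89), Kcne2 (0.87), Tmem72 (0.85), Drc7 (0.85), Epn3 (0.85), Cldn2 (0.85), Sostdc1 (0.84), Msx1 (0.84), Lbp (0.80) and Wdr86 (0.80). All 12 were highest in S8, which also had the highest mean z-score of the 10 genes (1.94, next S3 with 1.36). The choice of the 12 by that score therefore favours genes high in S8. Kcne2 ran from 0 counts to 1.44 CPM and Mfrp from 0.0451 to 3.25 CPM.

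The other ion and water transporters of the epithelium, most of which neurons and glia also use, had a median slope on Ttr of 0.005. Of 20 such genes, Kcne2 alone passed an adjusted p of 0.05. Slc4a2 and Car14 had slopes of 0.04 ± 0.01 and 0.05 ± 0.02 (SE, edgeR adjusted p = 0.177 and 0.837). Slc4a7 and Kcnq1 had slopes of -0.04 ± 0.01 and -0.07 ± 0.04 (SE, edgeR adjusted p = 0.778 and 0.941). These 4 were chosen after their values were seen. Atp1b1, a subunit of the sodium pump, had a slope of -0.01 ± 0.01, the bicarbonate transporter Slc4a10 -0.02 ± 0.01 and the kinase Wnk1 0.01 ± 0.01 (SE, edgeR adjusted p = 0.967, 0.935 and 0.965). The sodium-potassium-chloride cotransporter Slc12a2, named here as a textbook gene of fluid secretion and chosen after its values were seen, ran from 59.1 to 82.5 CPM with a slope of 0.01 ± 0.01 (SE, edgeR adjusted p = 0.948).

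None of 14 tested genes for the partners of transthyretin (thyroid hormone receptors, deiodinases, transporters and retinoid-handling proteins) passed, and their median slope was 0.001. The thyroid hormone receptor genes Thra and Thrb had slopes of -0.003 and 0.003, the cytosolic thyroid hormone-binding protein Crym -0.004 and the deiodinase Dio2 -0.004. Of 14 tested genes for the partners of autotaxin, the folate receptor and klotho, none passed, with a median slope of 0.01. Plpp3, which degrades lysophosphatidic acid, and the fibroblast growth factor receptors Fgfr3, Fgfr1 and Fgfr2 head that list by abundance.

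Markers of other cell types were followed in the same way. Of 14 markers of ependymal cells, the ciliated cells that line the ventricles beside the choroid plexus, none passed. Their slopes ran from -0.08 to 0.10 with a median of 0.05, the upper end being like the listed genes Clic6 (0.10) and Enpp2 (0.08). The r of the ependymal markers with Ttr had a median of 0.39 and ran from -0.20 to 0.72, against a median of 0.82 for the listed genes. Their summed level ran from 97.0 CPM in S5 to 131 CPM in B and was 123 CPM in S8. Most of that sum was Pltp, at a mean of 84.4 CPM and with a slope of 0.03 ± 0.01 (SE, edgeR adjusted p = 0.903), so that it says little about the others. None of the tested markers of oligodendrocytes (12), astrocytes (10), neurons (10), endothelial cells (12), vascular smooth muscle (10), fibroblasts (13) and blood and macrophages (10) passed, and their median slopes lay between -0.01 and 0.03. The summed level of the blood and macrophage markers was 238 CPM in S8, within a range of 78.9 to 295 CPM over the mice. No marker of the thalamus and midbrain (8 tested), the cerebellum (5 tested), the hypothalamus (6 tested) or the olfactory bulb (8 tested) passed, with median slopes of 0.05, 0.01, 0.25 and -0.11. The hypothalamic median was as high as that of the listed genes (0.23), but its markers differed. The slopes were 0.67 ± 0.15 for Avp, the vasopressin gene, 0.50 ± 0.17 for Oxt, the oxytocin gene, and 0.38 ± 0.12 for the transcription factor gene Otp (SE, edgeR adjusted p = 0.178, 0.805 and 0.741). Gal had 0.11 ± 0.08, while the 2 most abundant, Npy and Pomc, had -0.03 ± 0.02 and -0.05 ± 0.18 (SE, edgeR adjusted p = 0.948, 0.927 and 0.996). Avp, Otp and Gal were chosen after their values were seen, and the part of carried hypothalamus in the slopes on Ttr was not tested.

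**Figure D3:**
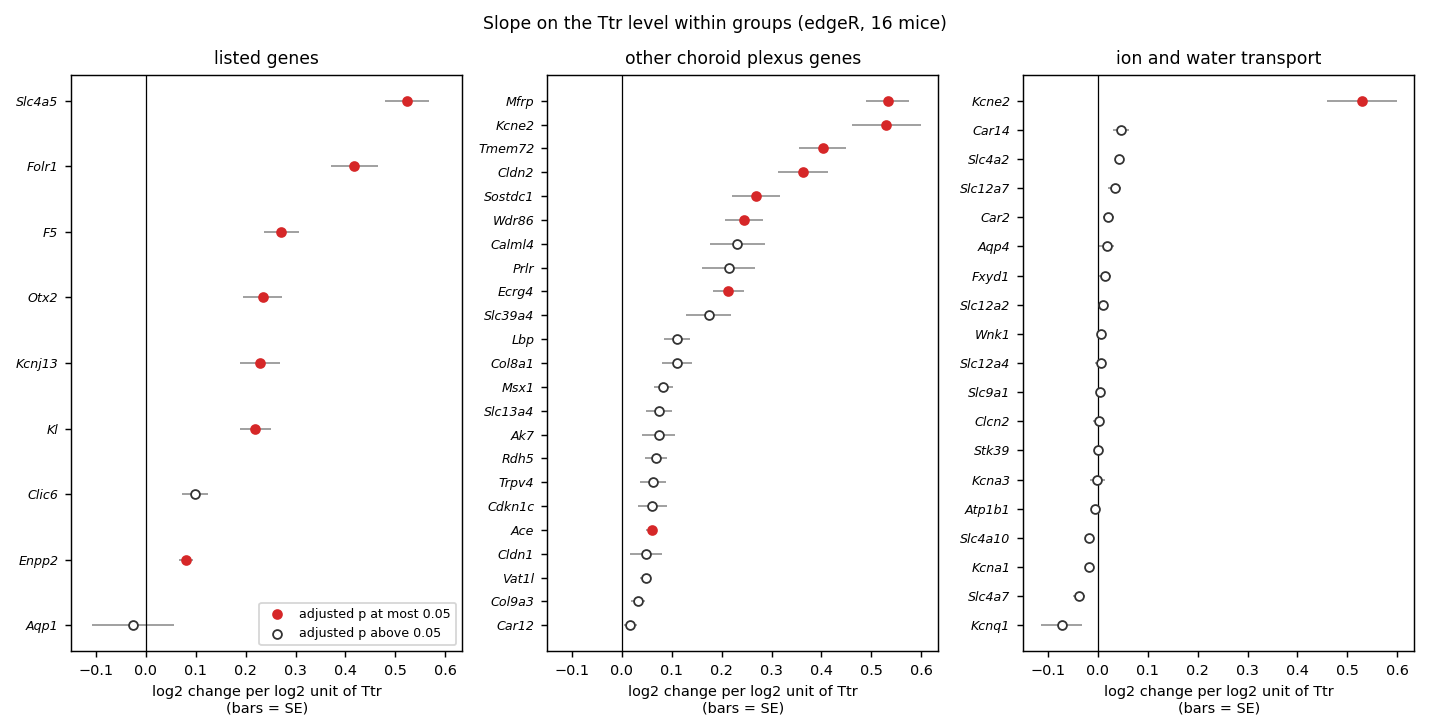
Slope of each gene on the log2 CPM of Ttr with the group means taken out (points, bars SE), for the 9 listed genes, 23 other choroid plexus genes and genes for ion and water transport, with genes that passed an adjusted p of 0.05 filled. Filled points are 7, 8 and 1 in the 3 panels, and Kcne2 stands in the last 2.

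Of the listed genes, Enpp2 also went with oligodendrocyte markers, with which its r had a median of 0.56 over 12 genes. For Ttr that median was 0.33. Both medians are over all 16 mice and so include any difference between the genotypes. In APPtg/CETPtg against CETPtg mice, 0 of the 12 markers were higher and 7 were called lower (median log2 change -0.24). Of all genes 17.7% were called in that comparison, and Enpp2 was at -0.09 ± 0.12 (SE). No r of Enpp2 with these markers was taken within a genotype. The summed level of the oligodendrocyte markers was 4799 CPM in S8, within its range over the mice of 3511 to 5359 CPM, and its part in the level of Enpp2 was not tested.

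Aqp1 went with another group of genes. Its r had a median of 0.85 over 8 markers of the olfactory bulb, against a median of -0.02 over all genes, and all 8 passed an adjusted permutation p of 0.05, as 277 genes (1.49%) did among the 18608 tested. The 4 most abundant of them were Cdhr1, a cadherin-related protein of olfactory bulb neurons, with r = 0.86, Th, the enzyme that limits dopamine synthesis, with r = 0.86, Doc2g with r = 0.85 and Sp8, a transcription factor of olfactory bulb interneurons, with r = 0.87 (permutation p = 3e-05, 3e-05, 5e-05 and 2e-05, adjusted p = 0.00797, 0.00797, 0.0093 and 0.00792). Spearman's rho was 0.89, 0.86, 0.89 and 0.89 (permutation p = 2e-05, 6e-05, 2e-05 and 3e-05). Without S5 and F, the 2 mice farthest from the median of Aqp1, r was 0.78, 0.81, 0.74 and 0.75. Within the genotypes r lay between 0.91 and 0.94 in CETPtg mice and between 0.82 and 0.89 in APPtg/CETPtg mice for these 4 genes.

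The summed level of the 8 olfactory bulb markers ran from 25.5 CPM in S5 to 250 CPM in G, the mice with the lowest and the highest Aqp1. It was 47 CPM in F, 52.8 in C, 72.3 in A, 234 in E and 240 in S6. S8 stood apart, with 33.1 CPM of olfactory bulb markers and an Aqp1 level of 3.92 CPM, against 0.544 CPM in S5 and 1.06 CPM in F. With Ttr the 8 markers had r from -0.34 to -0.12.

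**Figure D4:**
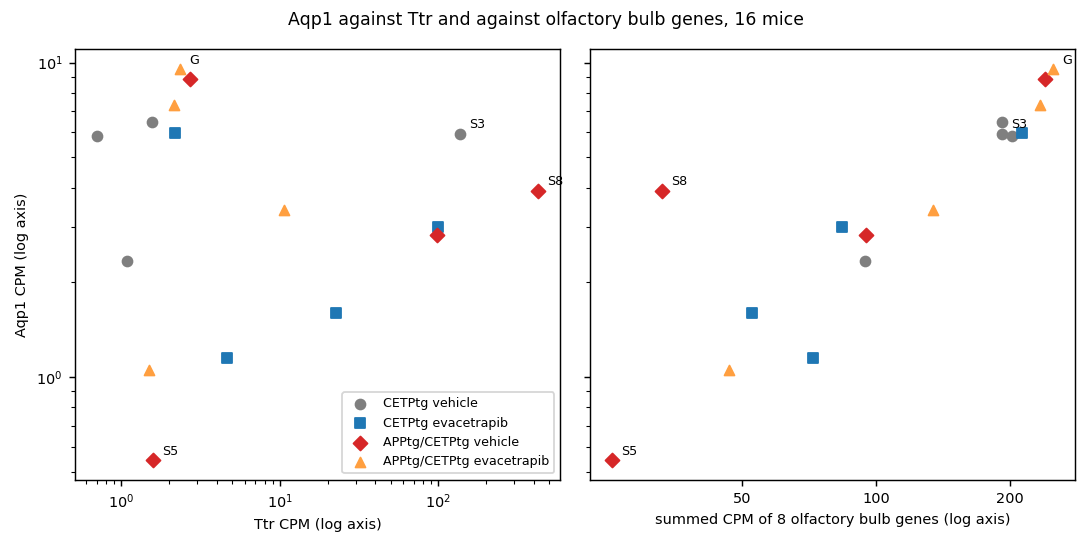
Aqp1 in CPM against Ttr (left) and against the summed CPM of 8 olfactory bulb genes (right), all on log axes, with 1 point per mouse coloured by group. Aqp1 rises with the olfactory bulb genes from S5 to G, with S8 above the other mice of a similar olfactory bulb level, and shows no such order against Ttr.

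Markers of 2 further structures at the base of the brain were also uneven, those of the hypothalamus partly in the same mice. The hypothalamic hormone gene Oxt had 1897 counts in S3 and 921 in S7, both high in Ttr, against a median of 24. The pituitary hormone genes Prl and Gh, chosen after their values were seen, had 13648 and 4495 counts in E, where Ttr had 57, and a median of 1 count each over the mice. Pomc, made in both structures, had 3915 counts in E and a median of 43. S8, the mouse with the most Ttr, had 59.7 CPM of the 10 hypothalamic markers in sum and 0.018 CPM of pituitary markers. The median over the mice was 66.2 CPM for the 6 tested hypothalamic markers, a smaller set. Most of the hypothalamic sum in S8 was Npy, which was at 44.7 to 85.2 CPM in every mouse. The medians of Oxt and Avp were 0.618 and 0.834 CPM, so that the sum says little about them.

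Whether the level of these genes differed with treatment was tested in edgeR over both genotypes. None of the 10 genes was called (adjusted p of at most 0.05 and a change of at least 5%), against 2 of 18609 genes (0.0107%), while 2 of the 10, Kcnj13 and Slc4a5, and 1472 genes in all had an unadjusted p under 0.05. All 10 estimates were lower with evacetrapib, with a median log2 change of -0.48 against -0.001 for all genes. S8 carried much of this: without it the median was -0.17, Ttr was at -1.27, Slc4a5 at -0.91, Kcnj13 at -0.33, Folr1 at -0.12, Kl at -0.028 and Enpp2 at -0.0097. With S8, limma-voom gave -0.99 for Ttr and -0.35 for Folr1. In edgeR with all mice, Ttr had the largest, -2.21 ± 1.29, then Slc4a5 with -1.61 ± 0.73, Folr1 with -0.83 ± 0.57 and Kcnj13 with -0.76 ± 0.35 (SE, edgeR adjusted p = 0.707, 0.613, 0.775 and 0.623). Enpp2 was at -0.14 ± 0.12 (SE, edgeR adjusted p = 0.827) and Aqp1 at -0.22 ± 0.45 (SE, edgeR adjusted p = 0.948).

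In the CETPtg mice alone, no choroid plexus gene passed the test. The estimates ran from -0.83 ± 0.60 for Aqp1 to 0.14 ± 0.47 for Otx2 (SE), with 4 of 10 above 0 and a median of -0.10, and Ttr was at -0.16 ± 1.37 (SE, edgeR adjusted p = 0.990). Neither a listed gene nor any other of the 18609 was called (0%), by edgeR or by DESeq2, and 0 of the 10 and 1079 genes in all had an unadjusted p under 0.05. No listed gene had all 4 evacetrapib mice below all 4 vehicle mice, as 339 genes (1.82%) did. Each of these groups held 1 mouse or more with a high level of Ttr, S3 at 138 CPM on vehicle and B at 99.7 CPM on evacetrapib.

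In the APPtg/CETPtg mice the estimates with evacetrapib were below 0 for 9 of the 10 genes, and none passed. The vehicle group held S7 and S8, with 97.3 and 427 CPM of Ttr, and the evacetrapib group held no mouse above 10.6 CPM. Ttr had a log2 change of -5.06 ± 1.75 (SE, edgeR adjusted p = 0.384) and Slc4a5 one of -3.73 ± 1.19 (SE, edgeR adjusted p = 0.352). Folr1 was at -1.72 ± 0.78, Otx2 at -1.22 ± 0.54, Kcnj13 at -1.16 ± 0.52, F5 at -1.12 ± 0.57, Kl at -0.66 ± 0.44, Clic6 at -0.52 ± 0.27 and Enpp2 at -0.31 ± 0.17 (SE, edgeR adjusted p from 0.519 to 0.698). Aqp1 alone was higher, by 0.40 ± 0.61 (SE, edgeR adjusted p = 0.882).

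None of the 10 was called, against 8 of 18609 genes (0.0430%), and 5 of the 10 and 1677 genes in all had an unadjusted p under 0.05. The median of the 10 was -1.14, against -0.001 for all genes. Markers of other cells differed in the same contrast, also with none called: fibroblast markers were higher in 13 of 13 (median 0.31, 7 with an unadjusted p under 0.05), endothelial markers in 10 of 12 (median 0.30, 10 under 0.05) and olfactory bulb markers in 8 of 8 (median 0.86, 0 under 0.05), while ependymal markers were lower in 11 of 14 (median -0.21, 2 under 0.05). Their part in the choroid plexus estimates was not tested. Slc4a5 was the 1 gene of the 10 whose evacetrapib mice all lay below the vehicle mice, as 432 genes (2.32%) did. Without S8 the changes were -3.10 for Ttr and -2.26 for Slc4a5 (edgeR adjusted p = 0.532 and 0.558). With no filter on low counts, both passed (edgeR adjusted p = 0.0162 and 0.0185), among 88 genes called in all. The list of 27 other choroid plexus genes had a median of -0.35 in this contrast with 0 of 23 tested genes called.

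The difference between the treatment effects of the genotypes did not pass for any of the 10 genes, nor for any gene of the table in edgeR (0%), where DESeq2 called 2 genes outside the list, and 1 of the 10, Ttr, and 1271 genes in all had an unadjusted p under 0.05. The estimate was -4.90 ± 2.22 for Ttr, -3.30 ± 1.58 for Slc4a5 and 1.24 ± 0.86 for Aqp1 (SE, edgeR adjusted p = 0.711, 0.724 and 0.787).

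Between the genotypes none of the 10 genes was called, in a comparison in which 3299 of 18609 genes (17.7%) were called. The estimates for APPtg/CETPtg against CETPtg ran from -0.17 ± 0.38 for Otx2 to 0.73 ± 0.56 for Folr1, and Ttr was at -0.02 ± 1.30 (SE, edgeR adjusted p = 0.810, 0.415 and 0.994). Their median was 0.02, and 6 of 10 were above 0.

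**Figure D5:**
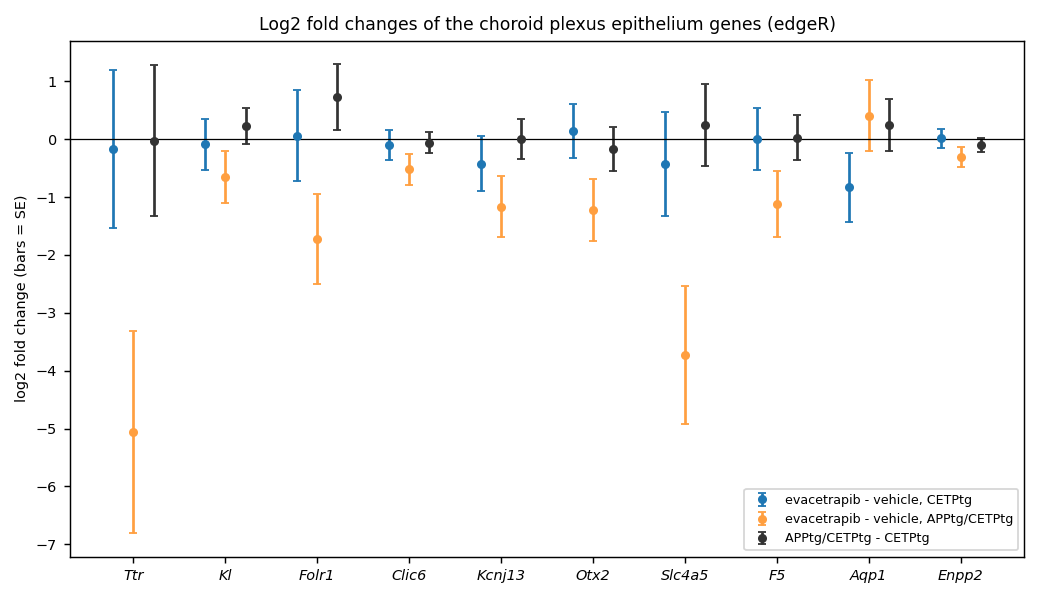
Log2 fold change of each gene (points, bars SE) for evacetrapib against vehicle within each genotype and for APPtg/CETPtg against CETPtg. The largest are Ttr at -5.06 and Slc4a5 at -3.73 in the APPtg/CETPtg mice, each with an SE above 1.

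The treatment contrast over both genotypes was also fitted with the mean level of the 10 listed genes as a term, for 4 genes of vascular smooth muscle and endothelium. They were picked with earlier results of these data known. The paper, using DESeq2, lists these 4 among its genes changed with evacetrapib and places them in smooth muscle of the choroid plexus. Myh11, the heavy chain of smooth muscle myosin, had r = -0.005 with Ttr across the 16 mice, Acta2, smooth muscle actin, r = 0.05, Tagln, the actin-binding protein transgelin, r = 0.01, and Kdr, a receptor of vascular endothelial growth factor, r = -0.02 (permutation p = 0.986, 0.846, 0.966 and 0.954, adjusted p = 1.000 each). Spearman's rho was 0.05, 0.13, 0.05 and 0.10 (permutation p = 0.866, 0.633, 0.856 and 0.702), and without S8 and S3 r was 0.23, 0.17, 0.20 and 0.07. With the mean z-score of the 10 genes as a further term, the log2 change with evacetrapib was 0.57 ± 0.08 for Myh11 (0.56 without the term), 0.61 ± 0.11 for Acta2 (0.58), 0.49 ± 0.09 for Tagln (0.48) and 0.43 ± 0.10 for Kdr (0.42). Myh11 was called with and without the term (edgeR adjusted p = 0.0255 and 0.0193), and Acta2, Tagln and Kdr in neither (edgeR adjusted p = 0.0884, 0.0903 and 0.175 with the term). The term includes Aqp1, which did not rise with Ttr, and Enpp2, which also went with oligodendrocyte markers. It holds no gene of choroid plexus vessels. With the Ttr level as the term instead, the changes were 0.56 ± 0.08 for Myh11, 0.59 ± 0.11 for Acta2, 0.48 ± 0.09 for Tagln and 0.42 ± 0.10 for Kdr (SE). Of these, Myh11 alone was called (edgeR adjusted p = 0.0279, 0.127, 0.127 and 0.188). The part of carried choroid plexus in the changes of these 4 genes was not tested. Which of them were called rested on single mice. With the mean z-score in the fit, 0 of the 4 were called without B, D, E, F, G or H. The count was also 0 without S1, S2, S3, S5 or S7, and it was 2 without C or S8 and 3 without S4.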

How the data were processed

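Whole-gene expression was measured in bulk brain RNA of 16 mice. Per the labels and methods, the authors enriched poly(A) RNA, made directional libraries, trimmed reads with Trimmomatic 0.39, aligned them to mm10 with STAR 2.7.8a and deposited a table of raw read counts per gene (HTSeq is among the tools named; its strand setting, and the annotation release, are not given in the sources used here). Picard 2.0.1, StringTie 1.3.5 and DESeq2 are also named in the submitters' processing notes. The counts were used as deposited. Every column was mapped to a mouse, 55141 of the 55487 identifiers are in GENCODE M21, which gave exon lengths, and no row lacked a gene.

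The 18609 genes that reached 10 counts in 4 or more mice were tested with edgeR 4.0.16 in R 4.3.3 (TMM scaling, quasi-likelihood test, Benjamini-Hochberg adjustment over all genes), with calls made where the adjusted p was 0.05 or lower and the change 5% or more. The fits used genotype and treatment as terms, or the 4 group means for single groups. Log2 CPM had a prior count of 2. Correlations across mice used two-sided permutation tests (100000 resamples, exact with 8 mice), run with SciPy. limma 3.58.1 (voom) and DESeq2 1.42.0 were alternatives, as were other scalings, filters, terms and leaving out each mouse. Scripts were tested on simulated counts. Named genes are the 10 genes, Myh11, Acta2, Tagln and Kdr, the 12 genes most alike, and up to 4 genes a list by mean CPM; others are said to be chosen later. One gene that the rule names is not reported here. The genes and lists were chosen with earlier results of these data known. The p values of the fits set each estimate against the spread between these mice. Counting error is largest for Slc4a5 and Folr1, with as few as 1 and 2 counts per mouse.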

Additional observations from a re-analysis of the deposited data

Results flagged for a closer look

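In 4 of the 40 sets of 4 mice (10 genes in 4 groups) 1 mouse stood far from the others. Its gap to the nearest, divided by the range, exceeded Dixon's critical value for 4 values. For independent, normally distributed values chance gives such a gap in about 1 set of 20. The rule was applied to CPM without the logarithm, and 9 of the genes vary together. The 4 of 40 therefore cannot be set against that rate. In the CETPtg vehicle group, S3 had 138 CPM of Ttr, with the next mouse at 1.56 CPM, and 1.60 CPM of Slc4a5, with the next at 0.242 CPM. In the APPtg/CETPtg evacetrapib group, H had 10.6 CPM of Ttr, with the next at 2.35 CPM. In the CETPtg vehicle group, S1 was low for Aqp1, with 2.34 CPM against 5.85 CPM in the nearest mouse. S8, although the highest mouse for 9 genes, did not meet this rule for any of them.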

How the results depend on the processing

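No listed gene was called for treatment, its difference between genotypes, or genotype under another scaling, DESeq2 (7 of 50 adjusted p were NA, the lowest of the others 0.152), limma-voom, a filter of 10 counts in every mouse, other terms or without any 1 mouse (0 to 0), nor with the replicate block (0 in each comparison). That block, the mouse numbers in the table's header, was added after seeing the data; same-numbered mice did not deviate together (24 pairs, median r = -0.006), and 2 of 16 correlated best with their own number. The exception was the APPtg/CETPtg treatment contrast with no filter on low counts, with 2 called. The association with Ttr gave 7 genes in all alternatives but the filter of 10 counts in every mouse, which left fewer genes tested and gave 3, and leaving out mice (3 to 7). The correlation with Ttr gave 1 gene, but 4 on CPM without the logarithm, 0 with a prior count of 0.5, without S8 and S3, on deviations from group means and in either genotype alone (where 8 mice can hardly pass), and 0 to 2 without single mice; the cause was not tested. Of the 4 vascular genes, 0 to 3 were called without single mice. Values near 0 changed sign, none of them past 0.05: Ttr in the CETPtg treatment contrast was 1.49 by limma-voom, 1.24 with the block and -1.86 to 4.80 without single mice, and between genotypes 1.12 by limma-voom, 1.07 with no treatment term and -1.32 to 0.85. Without single mice Otx2 ran from -0.11 to 0.78 in the CETPtg contrast and from -0.66 to 0.031 between genotypes, Folr1 from -0.086 to 1.02 between genotypes, and Kl from -0.93 to 0.052 and Aqp1 from -0.016 to 1.03 in the APPtg/CETPtg contrast. The slope of Aqp1 on Ttr was 0.069 by limma-voom and -0.075 to 0.060 without single mice, and its r -0.069 without the logarithm, -0.13 without S8 and S3, -0.13 in CETPtg mice and -0.13 to 0.069. Over all genes the treatment contrasts (both genotypes, CETPtg, APPtg/CETPtg and their difference) called 2, 0, 8 and 0 genes by edgeR, 59, 0, 73 and 2 by DESeq2, 35, 9, 88 and 29 with no filter, and 3, 0, 5 and 0 with the replicate block; the fit without genotype called 1 for both genotypes and the fit to 8 mice 2 for APPtg/CETPtg. Depth limits Slc4a5 most.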
